A study of Mus musculus with 4 samples.

Results

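The genes described here are markers of blood vessel cells, of the mural cells around them and of meningeal fibroblasts, with the matrix those cells lay down. They were read in cultures of mouse cortical neurons in which calmodulin had been depleted. Members were the probe sets of the deposited value table that carry exactly 1 gene symbol from a list of 35 symbols. Of these, 34 were measured, among 19938 genes in all: 11 endothelial, 5 mural and 18 fibroblast or matrix genes, each from 1 probe set. Ly6c1, an endothelial surface protein, was not measured by this rule, because its probe sets also carry the symbol Ly6c2.

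Cortex was taken on postnatal day 0 from pups, Syt1-deficient or wild type, whose background mixed SV129 with C57BL/6. The labels do not say which array came from which genotype. The cultures grew on Matrigel, a basement membrane extract, in medium with serum and with Ara-C, which stops cell division. On day 5 in vitro the knockdown cultures (2 samples) received lentivirus with shRNAs against calmodulin, the rescue cultures (2 samples) received the same shRNAs with a wild-type calmodulin that they do not target, and control cultures received control lentivirus, with RNA taken on day 14 to 15. Each value is the ratio of a sample's array to the control array of the same repeat, given below as log2, so that 0 is equality with control and 1 is a doubling.

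Endothelial cells line vessels, are joined by cadherin and claudin junctions and in brain carry transporters that form the blood-brain barrier. Mural cells, the pericytes and smooth muscle cells, wrap the endothelium and hold contractile proteins. Meningeal fibroblasts secrete the fibrillar collagens, fibronectin and small proteoglycans of the brain's coverings, and vessel cells share with them the type IV collagen of basement membranes. Dissociated cortex can carry along all of these cell types. Since the files hold ratios and no intensities, how much of any such cell's RNA a culture held cannot be read, and neither can the labelled identity of the cultures as neurons. In bulk RNA, fewer cells of a type and less RNA per cell cannot be told apart.

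RefSeq promoter windows of the build GRCm38.p6, from 250 bases before to 50 bases after an annotated transcript start, were matched by symbol to 25 of the 34 genes. Col4a1 and Col4a2, the chains of type IV collagen, are shown first because they are transcribed away from each other on opposite strands: their windows, at chr8:11312777-11313076 on the minus strand and chr8:11312555-11312854 on the plus strand, share 78 bases, written in capitals. Their ratios are set side by side further down.

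Col4a1: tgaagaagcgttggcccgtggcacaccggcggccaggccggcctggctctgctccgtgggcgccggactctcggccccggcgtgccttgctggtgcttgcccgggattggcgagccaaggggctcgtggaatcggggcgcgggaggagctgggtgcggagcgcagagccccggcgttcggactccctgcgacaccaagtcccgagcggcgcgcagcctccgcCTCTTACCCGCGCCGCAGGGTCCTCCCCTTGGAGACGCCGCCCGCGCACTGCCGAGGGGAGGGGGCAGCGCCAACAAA

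Col4a2: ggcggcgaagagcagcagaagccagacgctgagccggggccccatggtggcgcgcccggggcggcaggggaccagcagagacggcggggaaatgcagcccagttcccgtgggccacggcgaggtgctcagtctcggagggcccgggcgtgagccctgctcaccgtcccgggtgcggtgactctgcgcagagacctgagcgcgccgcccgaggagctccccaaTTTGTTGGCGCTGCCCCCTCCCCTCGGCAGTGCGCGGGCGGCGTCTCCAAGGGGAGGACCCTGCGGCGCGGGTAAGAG

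Col6a1, a chain of type VI collagen, and Slco1a4, an organic anion transporter of brain endothelium, are shown because their knockdown means were the highest of the fibroblast and of the endothelial genes. The windows are at chr10:76725995-76726294 and chr6:141856171-141856470, both on the minus strand. Capitals mark AGGAAG, one sequence read by ETS factors, on either strand, and no other form of their site.

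Col6a1: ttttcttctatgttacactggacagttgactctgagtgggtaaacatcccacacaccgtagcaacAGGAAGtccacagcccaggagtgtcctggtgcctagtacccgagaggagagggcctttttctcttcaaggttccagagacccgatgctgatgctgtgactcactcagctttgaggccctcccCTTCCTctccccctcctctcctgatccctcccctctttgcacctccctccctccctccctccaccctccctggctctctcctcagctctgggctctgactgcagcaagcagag

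Slco1a4: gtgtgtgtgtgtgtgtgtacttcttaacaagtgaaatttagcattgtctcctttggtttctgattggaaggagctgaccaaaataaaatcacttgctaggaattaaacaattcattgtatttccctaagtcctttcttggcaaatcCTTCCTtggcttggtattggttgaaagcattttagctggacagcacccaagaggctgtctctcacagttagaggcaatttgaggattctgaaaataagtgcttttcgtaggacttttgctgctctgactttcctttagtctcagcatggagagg

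AGGAAG, searched on both strands, was found in 5 of 8 endothelial windows and in 7 of 13 fibroblast and matrix windows, where 36.9% of the 15614 genes with a window held it. GGGCGG, the core of a GC box, was in 3 of the 8 endothelial and 10 of the 13 fibroblast windows, against 52.9% of all genes. None of the 4 mural windows held either. TATAAA was found in 5 of the 25 genes' windows (13.6% of all genes) and the CArG box of serum response factor in that of Igf2 (1.63% of all genes). These counts describe letters in a window and carry no test.

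Across the whole table the spread of log2 ratios was widest in knockdown repeat 2, with a standard deviation across genes of 0.349, and the other 3 samples had 0.232 to 0.243. Calm2, one of the genes the shRNAs target, lay at -1.08 and -1.72 in the knockdown, against -0.84 and -1.28 in the rescue. Calm3 lay at -1.32 and -2.40 in the knockdown, against -2.41 and -3.55 in the rescue. Both targeted genes were below control in all 4 samples. Both groups of a repeat stand over the same control array, so a shift of that array moves both.

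The vascular and fibroblast genes lay above control in knockdown repeat 2 and near it or below it in the other samples. Their median was 0.03 in knockdown repeat 1 and 0.37 in knockdown repeat 2, against 0.08 and -0.14 in the 2 rescue repeats. Over all genes the knockdown medians were -0.02 and 0.02, and both rescue medians were -0.01. In knockdown repeat 2, 29 of the 34 genes were above 0, where 52.4% of all genes were, and 21 were above 0.25, where 21.1% of all genes were. In knockdown repeat 1, 4 were above 0.25 (10.6% of all genes). In rescue repeat 2, 25 of the 34 were below 0, where 52.9% of all genes were, and 11 were below -0.25 (12.1% of all genes). Repeat 1 gave 21 above 0 in the knockdown (47% of all genes) and 24 in the rescue (48.1% of all genes). Ratios more than 0.5 from control in either direction were found for 11 genes in knockdown repeat 2 (12.7% of all genes) and 5 in rescue repeat 2 (3.61% of all genes). Repeat 1 had 2 such genes in the knockdown (4.28% of all genes) and 1 in the rescue (4.32% of all genes).

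**Figure D1:**
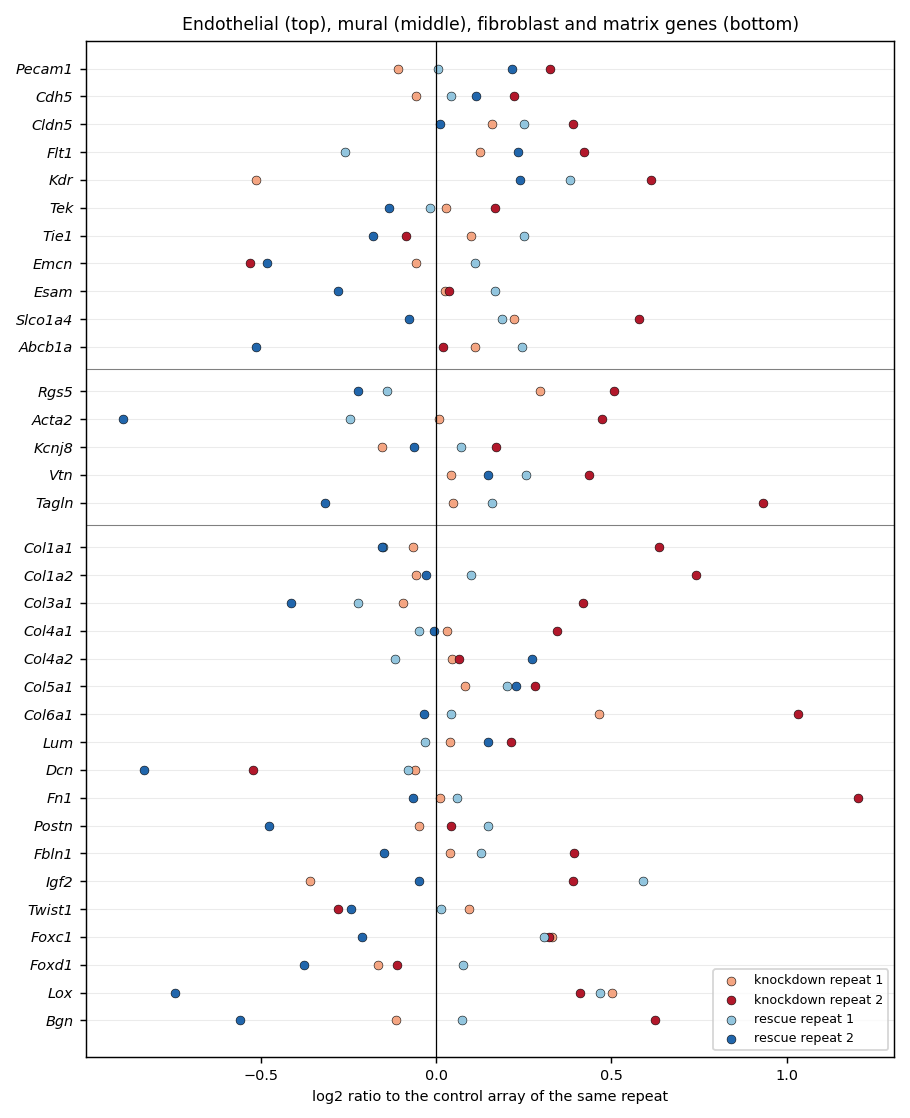
Log2 ratio to the control array of the same repeat (horizontal axis) for each of the 34 genes (rows), with 1 point per sample. Knockdown repeat 2 (dark red) lies farthest to the right for most collagens, Fn1 and Tagln, and rescue repeat 2 (dark blue) farthest to the left for Acta2, Dcn and Lox.

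Among endothelial junction proteins, Pecam1, an adhesion molecule of endothelial contacts, lay at -0.11 and 0.32 in the knockdown, against 0.01 and 0.22 in the rescue. Cdh5, the vascular endothelial cadherin, lay at -0.06 and 0.22 in the knockdown, against 0.04 and 0.11 in the rescue. Cldn5, the main claudin of the blood-brain barrier, lay at 0.16 and 0.39 in the knockdown, against 0.25 and 0.01 in the rescue. All 3 were higher in knockdown repeat 2 than in knockdown repeat 1, and their knockdown and rescue values overlapped. Esam, an adhesion molecule of tight junctions, lay at 0.02 and 0.04 in the knockdown, against 0.17 and -0.28 in the rescue, with both knockdown values inside the range of the rescue.

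The receptors gave no common direction. Flt1, a receptor for vascular endothelial growth factor, lay at 0.13 and 0.42 in the knockdown, against -0.26 and 0.23 in the rescue. Kdr, the main signalling receptor for that factor, lay at -0.52 and 0.61 in the knockdown, against 0.38 and 0.24 in the rescue. Kdr was the lowest endothelial gene in knockdown repeat 1, with 19429 of 19938 genes above it, and the highest in knockdown repeat 2, with 693 above it. Tek, the angiopoietin receptor, lay at 0.03 and 0.17 in the knockdown, against -0.02 and -0.13 in the rescue, and Tie1, its related receptor, at 0.10 and -0.09 in the knockdown, against 0.25 and -0.18 in the rescue. For Tek both knockdown values were above both rescue values by a small margin, and for Tie1 the groups overlapped.

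Emcn, a sialomucin of the endothelial surface, was the endothelial gene with both knockdown repeats below control. It lay at -0.06 and -0.53 in the knockdown, against 0.11 and -0.48 in the rescue, and repeat 2 was the lower of each pair. Slco1a4 lay at 0.22 and 0.58 in the knockdown, against 0.19 and -0.08 in the rescue, with both knockdown values above both rescue values. Abcb1a, the P-glycoprotein efflux pump of the barrier, lay at 0.11 and 0.02 in the knockdown, against 0.24 and -0.51 in the rescue. Its knockdown values lay within the rescue range, and in rescue repeat 2, the lowest sample, 19557 of all genes stood above it. Abcb1a has a close copy in the mouse genome, Abcb1b, and a probe set may read both.

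Mural genes had all 5 members above control in knockdown repeat 2, where 52.4% of all genes were. Rgs5, a regulator of G protein signalling found in pericytes, lay at 0.30 and 0.51 in the knockdown, against -0.14 and -0.22 in the rescue, and its groups did not overlap. Acta2, the smooth muscle actin, lay at 0.01 and 0.47 in the knockdown, against -0.25 and -0.89 in the rescue, also without overlap. Rescue repeat 2 was the lowest of the 4 for Acta2, with 19894 of all genes above it.

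Tagln, the actin-binding protein transgelin, lay at 0.05 and 0.93 in the knockdown, against 0.16 and -0.32 in the rescue, with 1 high sample, knockdown repeat 2. Kcnj8, a potassium channel subunit of pericytes, lay at -0.16 and 0.17 in the knockdown, against 0.07 and -0.06 in the rescue, and Vtn, the adhesive protein vitronectin, at 0.04 and 0.44 in the knockdown, against 0.26 and 0.15 in the rescue. Both overlapped between the groups, and Vtn was above control in all 4 samples.

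Chains of the fibrillar collagens, which form the fibres of connective tissue, were high in knockdown repeat 2. Col1a1, a chain of type I collagen, lay at -0.07 and 0.64 in the knockdown, against -0.15 and -0.16 in the rescue. Col1a2, the other chain, lay at -0.06 and 0.74 in the knockdown, against 0.10 and -0.03 in the rescue. Col3a1, which forms type III collagen, lay at -0.09 and 0.42 in the knockdown, against -0.22 and -0.41 in the rescue. In all 3, knockdown repeat 2 was the only sample more than 0.25 above control, while knockdown repeat 1 lay slightly below it. Col5a1, a chain of the type V collagen that sets fibre width, lay at 0.08 and 0.28 in the knockdown, against 0.20 and 0.23 in the rescue, above control in all 4 samples.

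The pair Col4a1 and Col4a2, whose windows share 78 bases, had different orders of samples. Col4a1 lay at 0.03 and 0.35 in the knockdown, against -0.05 and -0.01 in the rescue. Col4a2 lay at 0.05 and 0.06 in the knockdown, against -0.12 and 0.27 in the rescue. Knockdown repeat 2 was highest for Col4a1 and rescue repeat 2 was highest for Col4a2. Col6a1, a chain of the beaded filaments around cells, lay at 0.46 and 1.03 in the knockdown, against 0.04 and -0.03 in the rescue. Both knockdown values were high and both rescue values near control. In the knockdown, 383 of 19938 genes stood above it in repeat 1 and 84 in repeat 2.

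Fn1, fibronectin, lay at 0.01 and 1.20 in the knockdown, against 0.06 and -0.07 in the rescue. Its value in knockdown repeat 2 was the highest of any of the 34 genes in any sample, with 44 of all genes above it, while its other 3 values were within 0.07 of control. Lox, the enzyme that crosslinks collagen and elastin, lay at 0.50 and 0.41 in the knockdown, against 0.47 and -0.75 in the rescue, so that rescue repeat 2 stood apart from the other 3 samples. Postn, the matrix protein periostin, lay at -0.05 and 0.04 in the knockdown, against 0.15 and -0.48 in the rescue, and Fbln1, fibulin 1 of elastic fibres, at 0.04 and 0.39 in the knockdown, against 0.13 and -0.15 in the rescue. Rescue repeat 2 was the lowest sample for each of these 4.

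The small proteoglycans, which bind collagen fibres, split. Bgn, biglycan, lay at -0.11 and 0.62 in the knockdown, against 0.07 and -0.56 in the rescue, high in knockdown repeat 2 and low in rescue repeat 2. Dcn, decorin, lay at -0.06 and -0.52 in the knockdown, against -0.08 and -0.83 in the rescue, below control in all 4 samples and lowest in the repeat 2 arrays. Lum, lumican, lay at 0.04 and 0.21 in the knockdown, against -0.03 and 0.15 in the rescue, with no value more than 0.25 from control.

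Igf2, a growth factor made by meninges and vessel-associated cells, lay at -0.36 and 0.39 in the knockdown, against 0.59 and -0.05 in the rescue. The sign of its ratio turned between repeats in both groups, in opposite ways. Of the transcription factors, Foxc1, needed for the meninges, lay at 0.33 and 0.32 in the knockdown, against 0.31 and -0.21 in the rescue, with 3 samples close together above control and rescue repeat 2 below it. Foxd1, a marker of the pericyte and stromal lineage, lay at -0.17 and -0.11 in the knockdown, against 0.08 and -0.38 in the rescue, and Twist1, a mesenchymal factor, at 0.09 and -0.28 in the knockdown, against 0.01 and -0.24 in the rescue. Foxd1 was lowest in rescue repeat 2, and Twist1 was low in both repeat 2 samples.

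**Figure D2:**
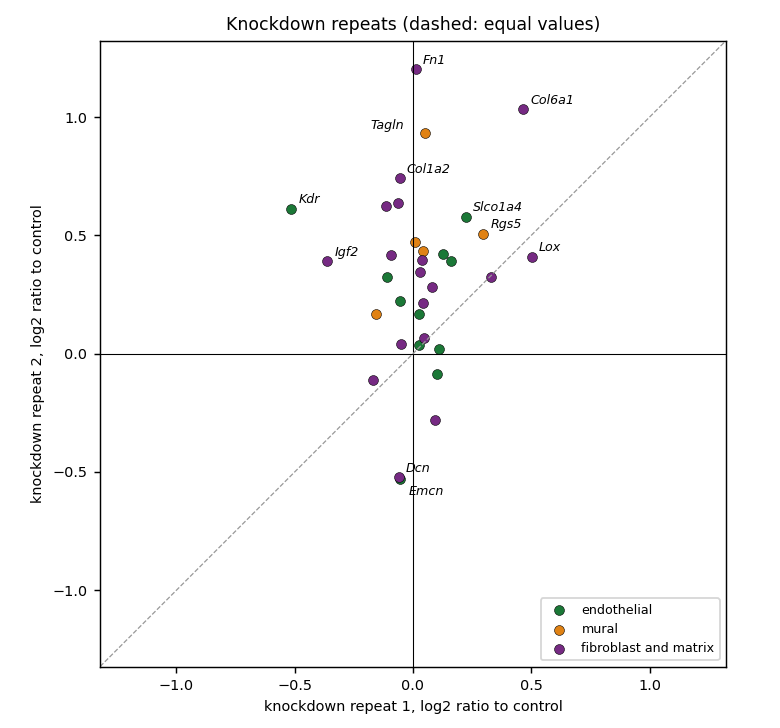
Log2 ratio to control in knockdown repeat 1 (horizontal axis) and in knockdown repeat 2 (vertical axis), 1 point per gene, coloured by cell type group. Of the 34 points 27 lie above the dashed line of equal values, where 53.3% of all genes do; Col6a1 is high on both axes, and Fn1 and Tagln on the vertical one.

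Knockdown against control asked which of these transcripts changed when calmodulin was depleted. By limma with Benjamini-Hochberg adjustment over all 19938 genes, 0 of the 34 passed at an adjusted p of 0.05, where 0.306% of all genes did. At an unadjusted p of 0.05, 5 of the 34 passed, all above control: Col6a1, Fn1, Rgs5, Slco1a4 and Tagln. Of all genes 16% passed, 6.93% above and 9.04% below control. With the repeat as a block, which also takes out the spread of the shared control arrays, 1 passed (5.39% of all genes did), which was Col6a1. Here and below, p-values against control with this block are too small for that reason.

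Col6a1 averaged 0.75 in the knockdown, or 1.68-fold over control (SE 0.15, n = 2, limma adjusted p = 0.0886, or 0.0213 with the block). Fn1 averaged 0.61 (SE 0.24, limma adjusted p = 0.270), and that mean rests on knockdown repeat 2. Tagln averaged 0.49 (SE 0.21, limma adjusted p = 0.306), which rests on the same sample.

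Rgs5 and Slco1a4 had both repeats above control, with means of 0.40 and 0.40 (SE 0.12 and 0.14, limma adjusted p = 0.176 and 0.219). The lowest knockdown means were those of Emcn (-0.29, SE 0.18) and Dcn (-0.29, SE 0.19), neither past an unadjusted p of 0.05. Of the 34 genes, 19 were above control in both knockdown repeats (30.5% of all genes) and 3 below it in both (31.1% of all genes): Emcn, Dcn and Foxd1. The knockdown repeats had separate control arrays. Without knockdown repeat 1, a fit in which a lone sample is assumed to vary like the other group called 5 of the 34 genes: Col1a1, Col1a2, Col6a1, Fn1 and Tagln (14.7% of them, where it called 6.38% of all genes). Without knockdown repeat 2 it called 0 (0.542% of all genes).

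Rescue against control read the cultures that also carried the resistant calmodulin. By limma 0 of the 34 genes passed at an adjusted p of 0.05 (0% of all genes passed), and with the repeat as a block 0 did (0.125% of all genes). At an unadjusted p of 0.05, 2 passed (7.44% of all genes), both below control (4.49% of all genes were below and 2.95% above). Acta2 averaged -0.57 (SE 0.18, n = 2, limma adjusted p = 0.573), and Dcn averaged -0.46 (SE 0.19, limma adjusted p = 0.662). Kdr had the highest rescue mean, 0.31 (SE 0.23). In the rescue 13 of 34 genes had the same sign in both repeats, where 54.7% of all genes did. Both rescue repeats were below control for 7 genes (29.8% of all genes) and above it for 6 (24.9% of all genes). For the 18 fibroblast and matrix genes the same sign was seen in 5, and most lay above control in repeat 1 and below it in repeat 2.

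Knockdown against rescue compared cultures that all carried the shRNAs. By limma 0 of the 34 genes passed at an adjusted p of 0.05 (0.0702% of all genes did, 0.0401% higher and 0.0301% lower), and 0 with the repeat as a block (0.617% of all genes). At an unadjusted p of 0.05, 3 passed (6.82% of all genes), all higher in the knockdown (2.81% of all genes were higher and 4.01% lower). Acta2 was 0.81 higher on the log2 scale, or 1.75-fold (SE 0.26, n = 2 per group, limma adjusted p = 0.469, or 0.207 with the block). Col6a1 was 0.74 higher (SE 0.22, limma adjusted p = 0.420, or 0.133 with the block) and Rgs5 0.58 higher (SE 0.17, limma adjusted p = 0.429, or 0.161 with the block). Without knockdown repeat 1, with the remaining knockdown sample assumed to vary like the rescue, 4 of the 34 genes passed (1.76% of all genes): Acta2, Col6a1, Fn1 and Tagln. Without knockdown repeat 2, 0 passed (0.737% of all genes).

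Both knockdown values were above both rescue values for 9 of the 34 genes (16.5% of all genes): Tek, Slco1a4, Rgs5, Acta2, Col1a1, Col3a1, Col4a1, Col6a1 and Foxc1. The reverse held for 0 of them (15.1% of all genes). Taken within a repeat, where the control array cancels, the difference came mainly from repeat 2. There 31 of the 34 genes were higher in the knockdown than in the rescue, where 57.7% of all genes were, with a median difference of 0.38. In repeat 1, 15 were (48% of all genes), with a median difference of -0.09. The knockdown was above the rescue within both repeats for 13 genes (30.1% of all genes) and below it for 1, Emcn (24.3% of all genes).

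Acta2 differed by 0.26 in repeat 1 and 1.37 in repeat 2. Fn1 differed by -0.05 in repeat 1 and 1.27 in repeat 2, and Bgn by -0.19 in repeat 1 and 1.19 in repeat 2. For Fn1 and Bgn the repeats gave opposite signs, and for Acta2 the same sign at unequal size. Col6a1 differed by 0.42 in repeat 1 and 1.07 in repeat 2, and Rgs5 by 0.44 in repeat 1 and 0.73 in repeat 2, the same sign with both differences above 0.4. Igf2 differed by -0.95 in repeat 1 and 0.44 in repeat 2, and Kdr by -0.90 in repeat 1 and 0.37 in repeat 2, so that these 2 genes were lower in the knockdown in repeat 1 and higher in repeat 2.

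**Figure D3:**
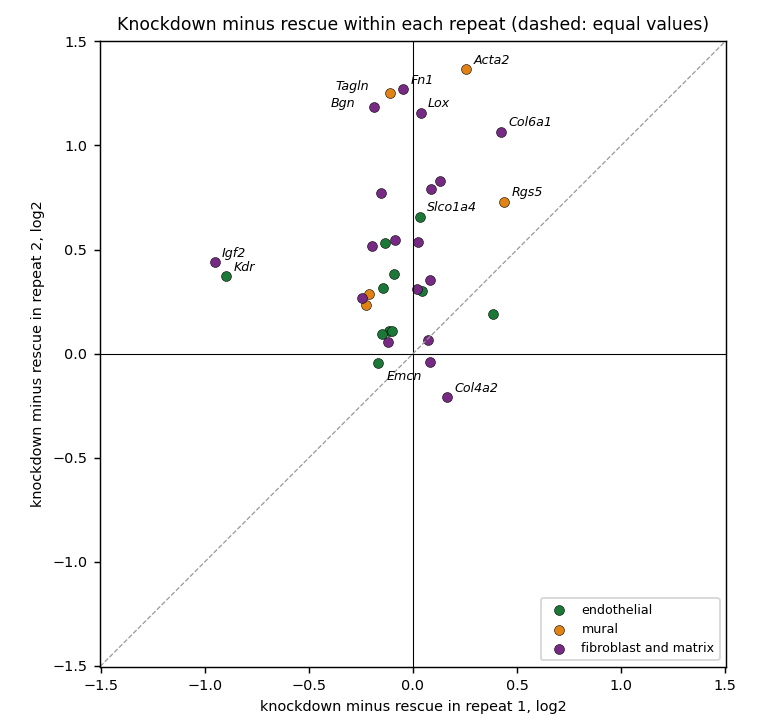
Knockdown minus rescue on the log2 scale within repeat 1 (horizontal axis) and within repeat 2 (vertical axis), 1 point per gene, coloured by cell type group. In repeat 2, 31 of the 34 genes lie above 0, Acta2 highest at 1.37; in repeat 1 the points lie on both sides of 0.

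Endothelial and fibroblast genes were then set against each other in each sample. In knockdown repeat 1 the endothelial median was 0.03 and the fibroblast and matrix median 0.02. In knockdown repeat 2 they were 0.22 and 0.37. In rescue repeat 1 they were 0.17 and 0.07, and in rescue repeat 2 they were -0.08 and -0.15. Endothelial minus fibroblast was therefore 0.01 and -0.15 in the knockdown, against 0.10 and 0.07 in the rescue.

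In knockdown repeat 2 the standard deviation across genes was 0.33 for the 11 endothelial and 0.43 for the 18 fibroblast and matrix genes. Single genes crossed the division: Slco1a4 and Kdr lay among the high fibroblast genes in knockdown repeat 2, and Dcn lay with Emcn at the low end. The highest endothelial gene in that sample was Kdr at 0.61, and 5 fibroblast and matrix genes (Fn1, Col6a1, Col1a2, Col1a1 and Bgn) stood above it. The mural median of 0.47 was the highest of the 3 groups in that sample, and the mural median of -0.22 the lowest of them in rescue repeat 2. No p was computed for any of these medians.

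**Figure D4:**
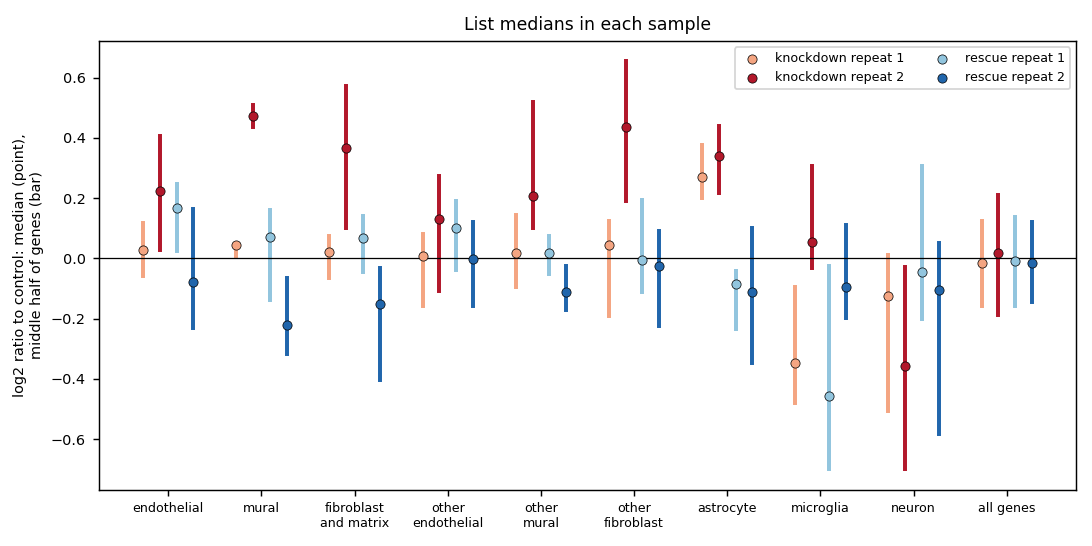
Median log2 ratio to control (point) and interquartile range of the genes (bar) for each gene list in each of the 4 samples. The fibroblast, mural and other fibroblast lists each have their highest median in knockdown repeat 2, at 0.37, 0.47 and 0.44. Astrocyte genes are above 0 in both knockdown repeats, and all genes centre near 0.

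Further genes of the same cell types, listed in the same way, gave 0 past an adjusted p of 0.05 by limma in each comparison. Of all genes, 6.93% were higher and 9.04% lower in the knockdown than in control at an unadjusted p of 0.05, and 1.91% were higher and 3.48% lower at an adjusted p of 0.05 with the repeat as a block. As above, p-values against control with the block are too small. Of 29 other endothelial genes 3 were higher and 2 lower at the unadjusted p, close to the share of all genes, and 0 passed with the block. Their medians were 0.01 and 0.13 in the knockdown, against 0.10 and 0.00 in the rescue. Abcg2, a barrier efflux pump, lay at -0.84 and -0.42 in the knockdown, against 1.28 and 0.34 in the rescue (knockdown minus rescue -1.44, SE 0.30, limma adjusted p = 0.240, or 0.0689 with the block). Sox7, an endothelial transcription factor, lay at 0.53 and 0.31 in the knockdown, against -0.40 and -0.36 in the rescue (difference 0.80, SE 0.17, limma adjusted p = 0.240, or 0.0697 with the block). The knockdown was below the rescue for Abcg2 and above it for Sox7, without overlap in either. Mfsd2a, a lipid transporter of the barrier, lay at -0.22 and 0.25 in the knockdown, against 0.55 and 0.23 in the rescue, and Cd34, a sialomucin, at 0.03 and 0.53 in the knockdown, against -0.01 and 0.78 in the rescue. Ctla2a, an inhibitor of cathepsins, lay at -0.37 and -0.41 in the knockdown, against -0.24 and -0.34 in the rescue, below control in all 4 samples.

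Of 19 other mural genes 18 were above control in knockdown repeat 2 (52.4% of all genes), with medians of 0.02 and 0.21 in the knockdown, against 0.02 and -0.11 in the rescue. At an unadjusted p of 0.05, 3 were higher and 0 lower in the knockdown than in control (6.93% and 9.04% of all genes), and 0 passed with the block. Pdgfrb, the receptor that keeps pericytes on vessels, lay at 0.15 and 0.68 in the knockdown, against -0.39 and -0.03 in the rescue, and Myl9, a myosin light chain of smooth muscle, at 0.13 and 0.75 in the knockdown, against -0.04 and -0.11 in the rescue. Neither gene's groups overlapped. Cspg4, a proteoglycan of pericytes that the oligodendrocyte lineage also makes, lay at 0.16 and 0.40 in the knockdown, against -0.11 and -0.28 in the rescue, also without overlap. Cox4i2, a subunit of cytochrome c oxidase, lay at 0.23 and 0.44 in the knockdown, against 0.28 and -0.03 in the rescue, and Ndufa4l2, a mitochondrial protein, at -0.08 and 0.23 in the knockdown, against -0.09 and -0.30 in the rescue. The groups overlapped for Cox4i2 and lay apart for Ndufa4l2 by a small margin.

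Of 47 other fibroblast and matrix genes 41 were above control in knockdown repeat 2 (52.4% of all genes), with medians of 0.04 and 0.44 in the knockdown, against -0.004 and -0.03 in the rescue. At an unadjusted p of 0.05, 11 were higher and 0 lower in the knockdown (6.93% and 9.04% of all genes), and 7 were higher with the repeat as a block (1.91% of all genes). Slc13a3, a dicarboxylate transporter listed here for meningeal fibroblasts, lay at 0.75 and 0.72 in the knockdown, against -0.28 and -0.37 in the rescue (knockdown against control 0.74, SE 0.12, limma adjusted p = 0.0548, or 0.0129 with the block). Its repeats were close in each group. Knockdown minus rescue was 1.06 for Slc13a3 (SE 0.16, limma adjusted p = 0.1075, or 0.0214 with the block). With the block, Slc13a3 was the only 1 of these 47 genes past an adjusted p of 0.05 in knockdown against rescue (0.617% of all genes passed). Ogn, the proteoglycan osteoglycin, lay at 0.42 and 0.94 in the knockdown, against 0.25 and -0.04 in the rescue (limma adjusted p = 0.103 against control, or 0.0350 with the block). Timp1, an inhibitor of matrix metalloproteinases, lay at -0.49 and 0.17 in the knockdown, against 1.92 and 0.02 in the rescue, so its rescue mean rests on rescue repeat 1. Emp1, a membrane protein, lay at 0.27 and 1.12 in the knockdown, against 0.15 and -0.0005 in the rescue (limma adjusted p = 0.143 against control, or 0.0441 with the block). Lama4, a laminin chain, lay at 0.08 and 0.46 in the knockdown, against 0.65 and 0.24 in the rescue, with rescue repeat 1 highest. Gjb2, a connexin of gap junctions, lay at 0.34 and 0.53 in the knockdown, against 0.40 and 0.34 in the rescue, above control in all 4 samples.

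Ligands and receptors of vessel growth and of transforming growth factor beta gave 2 higher and 3 lower of 23 in the knockdown at an unadjusted p of 0.05, and 0 higher and 2 lower with the block (of all genes 6.93% and 9.04% at the unadjusted p, and 1.91% and 3.48% with the block). Those 2 were Nrp1, a co-receptor for semaphorins and vascular endothelial growth factor that neurons also make, and Pdgfb, the endothelial ligand of Pdgfrb. Nrp1 lay at -0.18 and -0.99 in the knockdown, against 0.24 and -0.05 in the rescue (limma adjusted p = 0.198 against control, or 0.0330 with the block). Pdgfb lay at -0.68 and -0.42 in the knockdown, against -0.04 and -0.37 in the rescue (limma adjusted p = 0.120, or 0.0431 with the block). For Nrp1 and Pdgfb both knockdown values were below both rescue values. Fgf2, a fibroblast growth factor, lay at 0.15 and 0.72 in the knockdown, against 0.13 and 0.17 in the rescue, with 1 high sample, knockdown repeat 2. Pgf, placental growth factor, lay at -0.04 and 0.08 in the knockdown, against -0.28 and -0.40 in the rescue, and Aplnr, the apelin receptor, at 0.17 and 0.22 in the knockdown, against 0.40 and 0.16 in the rescue. Both knockdown values of Pgf were above both rescue values, and Aplnr was above control in all 4 samples. Tgfb3, a transforming growth factor beta, lay at -0.08 and -0.27 in the knockdown, against -0.22 and -0.30 in the rescue, below control in all 4 samples.

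Of 15 contractile genes and targets of serum response factor and of the YAP co-activator, 4 were higher and 2 lower in the knockdown at an unadjusted p of 0.05, and 0 and 1 with the block (of all genes 6.93% and 9.04% at the unadjusted p, and 1.91% and 3.48% with the block). The gene lower with the block was Srf itself, the serum response factor, at -0.41 and -0.59 in the knockdown, against -0.27 and -0.17 in the rescue (limma adjusted p = 0.115, or 0.0388 with the block). Cnn2, a calponin, lay at 0.25 and 0.81 in the knockdown, against 0.24 and -0.69 in the rescue. Ccn1, a secreted matrix protein, lay at 0.12 and 0.83 in the knockdown, against 0.08 and -0.19 in the rescue. Ccn2, a protein of the same family, lay at 0.18 and 0.69 in the knockdown, against 0.11 and -0.55 in the rescue. These 3 were high in knockdown repeat 2 and below control in rescue repeat 2, as Tagln was. Vcl, the adhesion protein vinculin, lay at 0.30 and 0.07 in the knockdown, against -0.26 and -0.25 in the rescue, with both knockdown values above both rescue values.

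Markers of other cells were also read in these samples. Of all genes, 47% and 52.4% were above control in knockdown repeats 1 and 2. In rescue repeats 1 and 2, 48.1% and 47.1% of all genes were. All 12 astrocyte genes were above control in both knockdown repeats (30.5% of all genes), with medians of 0.27 and 0.34. Their medians were -0.08 and -0.11 in the rescue, where 3 and 4 of 12 were above control. Microglia genes had medians of -0.35 and 0.06 in the knockdown, against -0.46 and -0.10 in the rescue, and 3 and 6 of 12 were above control in the knockdown, against 3 and 5 in the rescue. Neuron genes had medians of -0.12 and -0.36 in the knockdown, against -0.04 and -0.11 in the rescue, with 3 of 12 above control in each knockdown repeat and 5 in each rescue repeat. The 9 oligodendrocyte lineage genes had medians of 0.03 and 0.18 in the knockdown, against -0.09 and -0.15 in the rescue. The part of these cells, and of the wider spread of knockdown repeat 2, in the values of the vascular and fibroblast genes was not tested.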

How the data were processed

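Gene expression was read on Affymetrix mouse Gene 1.0 ST arrays. The values the authors deposited are linear ratios, 2 columns of knockdown and 2 of rescue, each set over its repeat's control array, per the labels. Background correction, summarization, normalization and genome build are not given in the sources used here, and the control arrays were not analysed here. Without intensities, no filter on dim probe sets was possible. Precision is limited by the number of arrays.

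Of 35399 probe sets, 21789 had exactly 1 symbol in the platform annotation, 1621 several, and 11989 were not listed there. Matching 21698 of them by Entrez identifier to RefSeq names changed 0 symbols. Log2 ratios were averaged per symbol (19938 genes). limma 3.58.1 in R 4.3.3 (lmFit, eBayes, two-sided) fitted 1 coefficient per group without intercept over all 4 columns, with 2 residual and 6.11 prior degrees of freedom. Each coefficient was tested against 0 and against the other, with Benjamini-Hochberg adjustment over all genes. No label states that the repeats were independent cultures, and the spread behind each p-value may be technical.

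Samples given the same repeat number here share a number in their array titles, and they were paired on it (deviations from group means correlated at 0.305 across genes). The titles do not say what that shared number stands for. Blocking on the repeat also removes the spread of the control arrays, so p-values against control are then too small. Alternatives were the block, centring, quantile normalization, other handling of probe sets, robust eBayes and leaving out each sample. All 34 members are named. Of each further list of vascular, fibroblast, ligand or contractile genes, those named are the 3 with the largest mean difference from control in the knockdown and the 3 in the rescue, and none were named for the lists of other cell types. Members and lists were chosen with earlier results of these data known.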

Additional observations from a re-analysis of the deposited data

How the results depend on the processing

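With all 4 samples, the count of the 34 genes past the threshold stayed at 0 in all 3 comparisons under centring, quantile normalization, robust eBayes and both other ways of handling probe sets. The repeat as a replicate block gave 1 against control in the knockdown, and changed no other call among the 34 genes. Leaving out a replicate gave 0 to 5 for knockdown against control and 0 to 4 for knockdown against rescue, the highest each time without knockdown replicate 1, where Acta2, Col6a1, Fn1 and Tagln were higher in the knockdown than in the rescue. Over all genes the 61 calls for knockdown against control became 1074 with the replicate block, 20 after quantile normalization, 0 with every probe set tested, and 12 to 1272 with a replicate left out. The 0 calls for rescue against control became 25 with the block, 1 after quantile normalization and 0 to 176 with a replicate left out. The 14 for knockdown against rescue became 123 with the block, 4 after centring, 2 after quantile normalization, 4 with the probe set of largest mean absolute log2 ratio per gene, 4 with robust eBayes, 0 with every probe set tested, and 0 to 350 with a replicate left out. Endothelial minus fibroblast, -0.10 over the knockdown means, ranged from -0.146 to 0.0059 with a replicate left out. Over the rescue means it was 0.05, and it became 0.0832 with means in place of medians, 0.15 without Col4a1, Col4a2 and Fn1, and 0.0735 to 0.102 with a replicate left out. Quantile normalization turned the sign of an uncalled mean for 3 of the 34 genes in knockdown against control and for 3 in knockdown against rescue. Centring did so for 2 in rescue against control and 3 in knockdown against rescue. Leaving out a sample turned more signs. Without knockdown replicate 2, 10 of the 34 turned in knockdown against control. Without rescue replicate 2, 13 turned in rescue against control and 11 in knockdown against rescue. The cause of these differences was not tested.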
